A study of Mus musculus with 17 samples.

Results

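Mitochondrial ribosomal protein genes were described in kidneys of diabetic db/db mice and in lean db/m mice. The members are the protein-coding genes whose symbols start with Mrpl or Mrps and a number, with pseudogene symbols left out, that held at least 10 counts in 8 or more of the 17 libraries. Of 78 such symbols in the table, 73 passed, among 12224 genes of any kind that passed the same count rule and 55487 gene identifiers in all. The 5 that failed were Mrpl23, with 62 counts over all libraries, Mrpl53 with 1, Mrps18b with 80, Mrps28 with 71 and Mrps36 with 33, the last of which is no longer counted as a ribosomal subunit. The rule used the size of the counts and not the difference between the groups.

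The series sets 9 db/db animals, homozygous for the Lepr db mutation and therefore obese and diabetic, against 8 db/m animals, heterozygous carriers that stay lean. All were males aged 16 weeks on the BKS.Cg-Dock7m +/+ Leprdb/J background, no agent is named in the labels, and each library is 1 kidney sample. Kidney RNA was sequenced from the 3′ ends of polyadenylated transcripts (QuantSeq), so that counts do not scale with transcript length. Groups were taken from the sample titles, with which library names and group sizes go together. In every sample the genotype field names the other genotype, and each direction below would be reversed if that field were correct. The library numbers 1 to 8 are all db/m and the db/db numbers are all higher, so any effect of processing order cannot be told apart from genotype.

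Mitochondria keep a ribosome of their own, built from RNAs encoded in mitochondrial DNA and from proteins that are encoded in the nucleus, translated in the cytosol and imported. Its small subunit binds the messenger and its large subunit forms peptide bonds and sits at the inner membrane. It makes the few core subunits of the respiratory chain and ATP synthase that mitochondrial DNA still encodes, while nuclear genes supply the rest. Part of its proteins descend from bacterial ribosomal proteins and part are found only in mitochondria. Kidney tubules, above all the proximal tubule, are rich in mitochondria because sodium reabsorption consumes much ATP.

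The 73 members comprised 49 genes of the large subunit and 24 of the small subunit. Mrps18a and Mrps30 were placed with the large subunit, where their proteins sit in spite of their symbols. Of the 73, 43 have a bacterial homologue and 30 are specific to mitochondria. Every member passed the expression filter of the statistical test, so none was lost to it. Together they held 11814 to 28780 counts per db/db library and 12813 to 23167 per db/m library.

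Many of these genes start close to a gene on the opposite strand. In the GENCODE M21 annotation, 32 of the 73 members, or 43.8%, had the start of a protein-coding gene on the other strand within 1000 bases of their own, against 16.3% of the 11063 protein-coding genes tested. RefSeq promoter windows, which run from 250 bases before the start to 50 after it on build GRCm38.p6, were matched by symbol for 65 members. Both strands were searched for 3 exact words. CCGGAAG, the core bound by ETS factors such as the GABP complex, occurred in 24 windows, or 36.9%, against 20.4% of the 9052 windows of tested genes. ATGGCGG, the core of a YY1 site, occurred in 12, or 18.5%, against 9.74%, and GCATGCG, the core of an NRF1 site, in 7, or 10.8%, against 7.29%. At least one of the words stood in 35 member windows, or 53.8%, against 32.7%. A match is a run of letters and does not show that a factor binds.

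The windows of 5 members are shown, because the results below turn on them. Mrpl46 and Mrps11 start back to back on chromosome 7, at chr7:78783040-78783339 on the minus strand and chr7:78782881-78783180 on the plus strand, and capitals mark the 141 bases that both windows cover. Mrps25, at chr6:92183974-92184273 on the minus strand, and Mrpl50, at chr4:49521034-49521333 on the minus strand, are the members with the smallest p-values in each direction. The Mrps25 window holds none of the 3 words, and in that of Mrpl50 capitals mark 1 YY1 word. Mrps16, at chr14:20393441-20393740 on the minus strand, has the next smallest p-value, and capitals mark its 2 ETS words, both read as CTTCCGG on the strand shown. The Mrps11 window also holds the YY1 word, outside the capitals.
Mrpl46: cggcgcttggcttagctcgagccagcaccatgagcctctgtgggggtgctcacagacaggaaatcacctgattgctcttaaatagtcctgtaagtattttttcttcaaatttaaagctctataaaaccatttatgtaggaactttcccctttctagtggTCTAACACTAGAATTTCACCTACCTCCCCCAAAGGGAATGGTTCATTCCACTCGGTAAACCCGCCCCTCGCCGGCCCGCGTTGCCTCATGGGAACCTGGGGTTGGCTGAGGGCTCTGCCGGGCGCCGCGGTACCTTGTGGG
Mrps11: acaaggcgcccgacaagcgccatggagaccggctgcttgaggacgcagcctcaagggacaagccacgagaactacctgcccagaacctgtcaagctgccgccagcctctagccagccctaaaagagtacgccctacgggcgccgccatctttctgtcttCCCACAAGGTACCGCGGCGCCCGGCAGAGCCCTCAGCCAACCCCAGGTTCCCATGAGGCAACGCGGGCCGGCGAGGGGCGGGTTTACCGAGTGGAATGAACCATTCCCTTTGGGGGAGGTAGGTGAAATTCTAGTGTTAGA
Mrps25: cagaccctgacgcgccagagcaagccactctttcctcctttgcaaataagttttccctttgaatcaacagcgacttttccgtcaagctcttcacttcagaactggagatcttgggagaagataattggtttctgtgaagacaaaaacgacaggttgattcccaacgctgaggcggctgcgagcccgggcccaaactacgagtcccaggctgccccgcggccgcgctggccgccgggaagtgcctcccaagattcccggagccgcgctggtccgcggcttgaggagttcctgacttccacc
Mrpl50: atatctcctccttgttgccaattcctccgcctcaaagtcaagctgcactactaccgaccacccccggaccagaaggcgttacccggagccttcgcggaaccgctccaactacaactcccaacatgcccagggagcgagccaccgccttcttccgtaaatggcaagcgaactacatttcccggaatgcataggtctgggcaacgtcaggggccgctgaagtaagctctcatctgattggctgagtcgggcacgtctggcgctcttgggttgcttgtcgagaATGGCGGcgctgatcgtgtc
Mrps16: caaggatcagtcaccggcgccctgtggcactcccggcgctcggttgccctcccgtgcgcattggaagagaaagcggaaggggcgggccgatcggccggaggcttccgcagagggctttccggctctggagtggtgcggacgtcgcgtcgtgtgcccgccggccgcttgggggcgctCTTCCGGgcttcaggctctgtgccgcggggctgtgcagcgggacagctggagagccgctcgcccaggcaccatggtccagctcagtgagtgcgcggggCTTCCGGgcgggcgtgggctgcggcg

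Libraries held 3256427 to 7627747 gene counts. Mitochondrially encoded genes took 27.4% ± 2.60 of them in db/db and 28.8% ± 1.24 in db/m (SD, n = 9 and 8). The share of reads outside annotated genes was 18.3% ± 2.29 in db/db and 20.2% ± 0.451 in db/m. On the first principal component of all genes, which held 32.8% of the variance, db/db replicates 7 and 8 and db/m replicates 4 and 8 lay farthest from 0. Next, and nearly as far, was db/db replicate 1, at -40.6 against -41.9 for db/m replicate 4. A gene is named as called where its adjusted p was under 0.05 by edgeR. Of all genes tested, 3.91% were called higher and 3.49% lower in db/db. Kidney markers were present in all libraries, and markers of the late proximal tubule (S3) differed: 5 of 6 were called lower and 1 higher in db/db, with a summed level of 1370 to 2120 CPM in db/db and 2696 to 3116 CPM in db/m. Markers called higher numbered 4 of 6 for the distal convoluted and connecting tubule, 3 of 5 for intercalated cells, 2 of 5 for podocytes, 2 of 7 for the early proximal tubule, 3 of 6 for principal cells with 1 lower, and 1 of 5 for the thick ascending limb with 1 lower. Of plasma cell markers 2 of 4 were called lower, and 0 of 6 endothelial, 0 of 8 fibroblast and mural, 0 of 5 macrophage, 0 of 4 adipocyte and 0 of 5 erythrocyte markers were called. T and B cell and adrenal markers were too low to test, with Cd79a and Cyp11b2 at 0 in every library. Whether these differences reflect cell numbers or expression per cell was not tested, nor was their part in the results below.

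Single members spanned a 101-fold range of levels. The mean over all 17 libraries was lowest for Mrps10 at 2.65 CPM (counts per 1000000 gene counts, here of 3′ tags), 43.3 CPM at the median member and highest for Mrpl12 at 269 CPM, and 51 of the 73 lay within 2-fold of the median. Mrpl12, whose bacterial homologue forms the stalk that recruits translation factors, ranged from 202 to 392 CPM in db/db, with a median of 251, and from 198 to 336 CPM in db/m, with a median of 249. Nearly equal medians and overlapping ranges describe this most abundant member in both groups. Mrps6, Mrpl34, Mrps12, a protein of the decoding centre, and Mrpl37 followed in level, and these 5 genes made up 25.6% of the summed level. Mrps6 overlaps Slc5a3, the myo-inositol transporter gene, on the same strand, so its tags are uncertain. Counts of Mrps10, Mrps33, Mrpl9, Mrps21 and Mrpl22, the 5 lowest by level, averaged under 10 CPM.

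As a family, the transcripts averaged slightly higher in db/db, a difference that was described and not tested. Their summed CPM, taken over nuclear-encoded gene counts only, was 5326 ± 484 in db/db and 4726 ± 177 in db/m (SD, n = 9 and 8). By replicate from 1 to 9 it was 4758, 4868, 5006, 5799, 5350.5, 5358, 6320, 5290 and 5186 in db/db, and from 1 to 8 it was 4703, 4477, 4829, 4536, 5039, 4699, 4833 and 4696 in db/m. The groups overlapped: db/db replicates 1, 2 and 3 lay within the db/m range, and the other 6 lay above it, replicates 7 and 4 farthest. Against all gene counts, mitochondrially encoded ones included, the sums were 3873 ± 431 in db/db and 3364 ± 154 in db/m. The large subunit summed to 3616 ± 364 in db/db and 3271 ± 81.7 in db/m, and the small subunit to 1711 ± 150 in db/db and 1455 ± 110 in db/m. The ratio of the sums, large to small, was 2.12 ± 0.162 in db/db and 2.26 ± 0.147 in db/m, which differ by less than 1 SD of either group. More cells rich in these transcripts and more transcript per cell cannot be told apart in whole tissue.

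**Figure D1:**
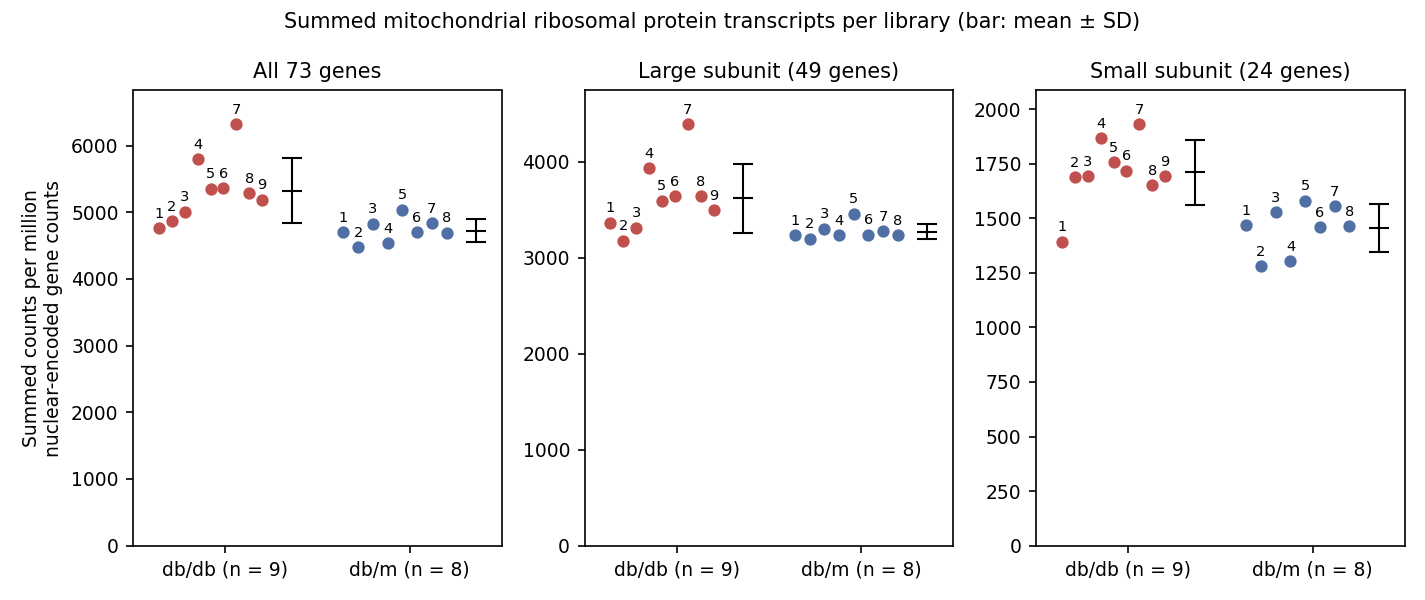
Summed transcripts of the mitochondrial ribosomal protein genes in each library, for all 73 genes and for each subunit, in CPM of nuclear-encoded gene counts. Points are libraries labelled by replicate number, db/db in red and db/m in blue, and bars give mean ± SD; in the panel of all 73 genes, 6 of the 9 db/db libraries lie above every db/m library, replicates 7 and 4 farthest, and 3 lie within the db/m range.

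The plot of summed levels shows a wider spread in db/db than in db/m in every panel. Counted gene by gene, the members above their own db/m mean numbered 59 in db/db replicates 4 and 7, 52 in replicate 6, 49 in replicate 5, 43 in replicate 8, 40 in replicate 1, 38 in replicate 9, 27 in replicate 3 and 26 in replicate 2. The same count was 50 in db/m replicate 5 and 31 to 38 in the other db/m libraries. The upward shift was thus carried unevenly by the db/db animals.

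No member passed the test between the groups. With the quasi-likelihood test of edgeR, Benjamini-Hochberg adjusted over all 12131 genes tested, 0 of 73 were called at an adjusted p under 0.05. Of all genes 7.39% were called, 3.91% as higher and 3.49% as lower in db/db. At an unadjusted p under 0.05 there were 14, of which 13 were higher and 1 lower, or 19.2% of the members against 21.1% of all genes. DESeq2 called 1, Mrps25, against 7.37% of the genes it tested. The log2 fold changes, db/db minus db/m, ran from -0.46 to 0.46 with a median of 0.11, against 0.00 over all genes, and 54 of the 73 were positive, or 74.0% against 50.5%. No member separated the groups completely, against 1.78% of all genes whose libraries did not overlap.

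**Figure D2:**
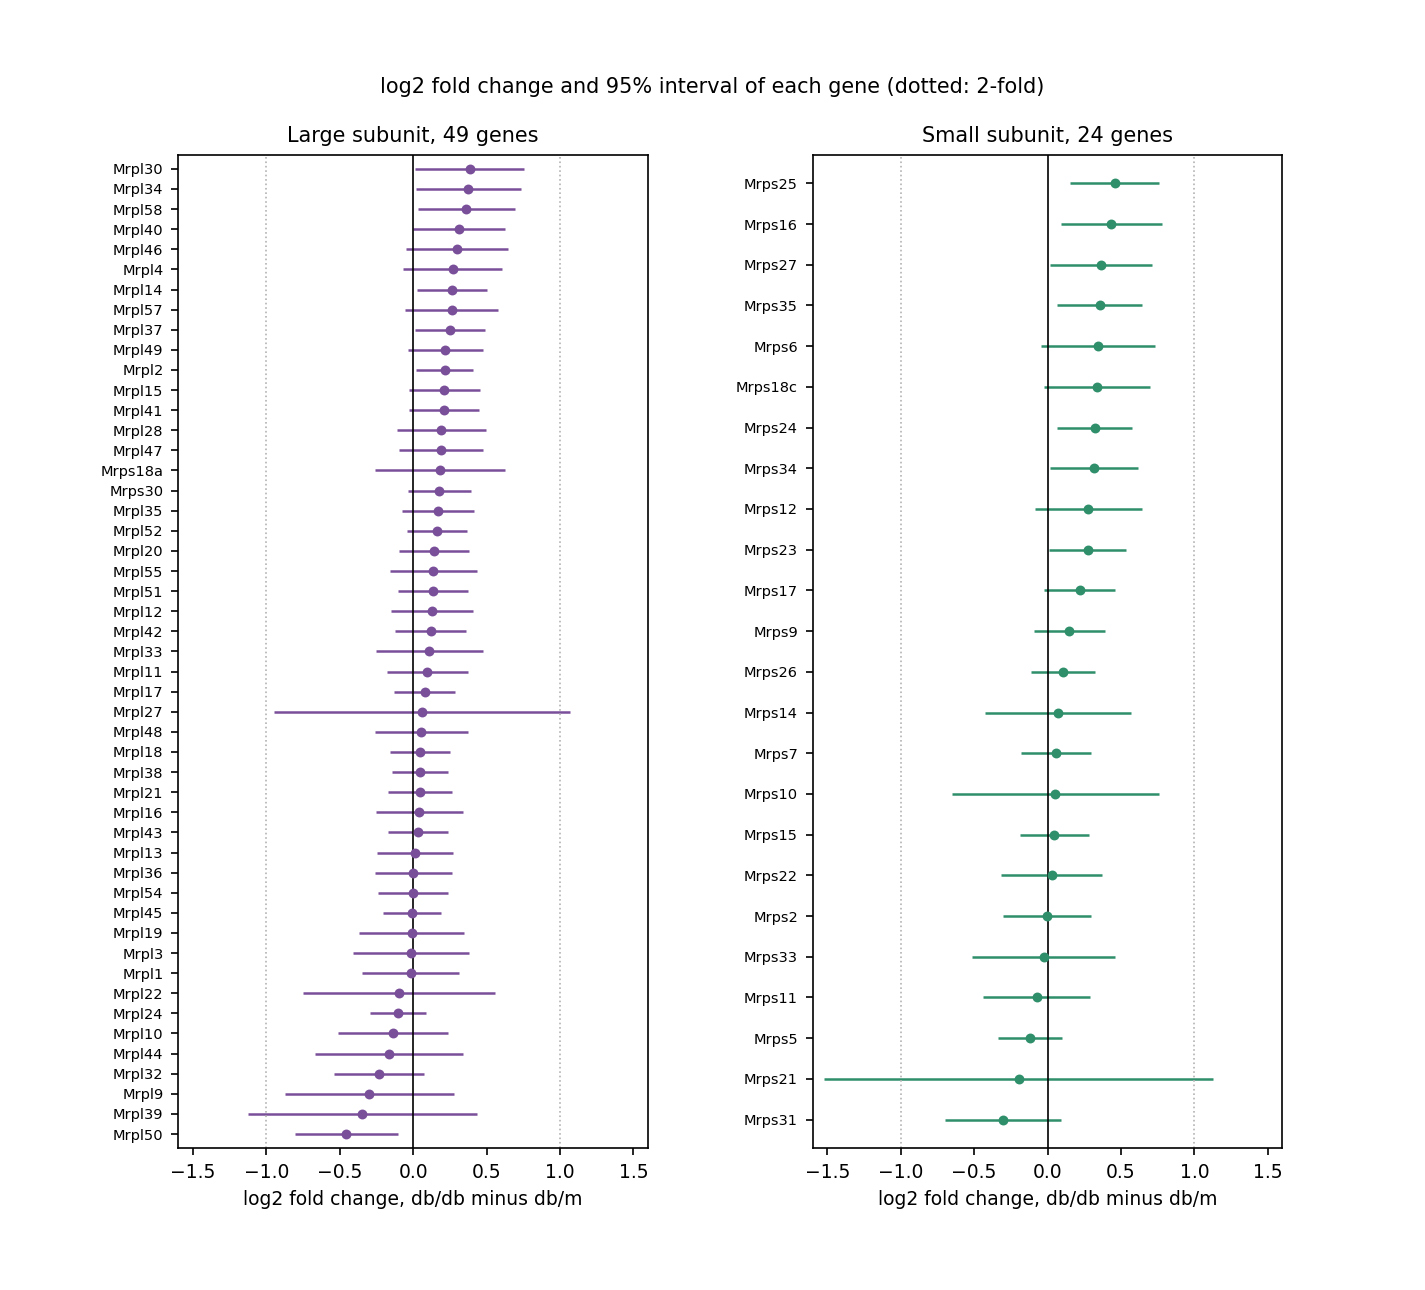
The log2 fold change of each member, db/db minus db/m, with its 95% interval, for the large subunit on the left and the small subunit on the right. Most points lie between 0 and 0.46, most intervals include 0, and the widest belong to Mrps21, Mrpl27 and Mrpl39.

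The precision was enough to bound most members. The median standard error was 0.14, and the 95% interval lay inside 2-fold in either direction for 70 of 73 and inside 1.5-fold for 49. The median log2 fold change was 0.11 for the large subunit, with 36 of 49 positive, and 0.13 for the small subunit, with 18 of 24 positive. It was 0.07 for the 43 genes with a bacterial homologue and 0.15 for the 30 specific to mitochondria. Of the 37 members at or above the median level, 33 were positive with a median of 0.16, and of the 36 below it, 21 were positive with a median of 0.04. None of these subsets held a called gene.

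By p-value, small subunit genes led the positive side. Mrps25 (ENSMUSG00000014551, chromosome 6), a small subunit protein specific to mitochondria, ranged from 44.1 to 88.9 CPM in db/db with a median of 62.1, and from 37.5 to 61.8 CPM in db/m with a median of 44.7. Of the 9 db/db libraries, 5 stood above every db/m library and 8 above the db/m median. This gave a log2 fold change of 0.46 (SE 0.15; 95% interval 0.16 to 0.76), with an edgeR adjusted p of 0.0593, just outside the threshold. It was called by edgeR without db/db replicate 1, without db/db replicate 2 and without db/m replicate 5, with log2 fold changes of 0.50, 0.51 and 0.54, and by DESeq2 at an adjusted p of 0.0488. Those edgeR fits called 10.3%, 6.84% and 6.87% of all genes, against 7.39% with all libraries. Mrps25 overlaps Nr2c2 on the opposite strand, and its tags are uncertain where counting ignored strand.

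Mrps16 (chromosome 14), a small subunit protein mutated in a human respiratory chain deficiency, ranged from 38.6 to 85.5 CPM in db/db with a median of 54.6, and from 33.6 to 51.4 CPM in db/m with a median of 42.2. Again 5 of the 9 db/db libraries stood above all db/m libraries, and the lowest 4 overlapped with them. The log2 fold change was 0.44 (SE 0.16, edgeR adjusted p = 0.121). Mrps24, which lies near the messenger entry site, gave 36.1 to 58.6 CPM in db/db and 27.97 to 42.6 CPM in db/m. All 9 db/db libraries exceeded the db/m median of 34.6 CPM, at a log2 fold change of 0.32 (SE 0.12, edgeR adjusted p = 0.128). Mrps24 overlaps Urgcp on the same strand.

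Mrps35, a further small subunit protein specific to mitochondria, gave 41.4 to 99.6 CPM in db/db, with replicate 4 far above the rest, and 38.9 to 53.3 CPM in db/m. Its log2 fold change was 0.35 (SE 0.14, edgeR adjusted p = 0.135), and 0.23 without that replicate. Mrps27, a pentatricopeptide repeat protein, Mrps34 and Mrps23 stood at 0.36, 0.32 and 0.27, and Mrps6 at 0.34. Those for which the interval left out 0 at the unadjusted level were Mrps25, Mrps16, Mrps24, Mrps35, Mrps27, Mrps34 and Mrps23. They are 7 of the 24 small subunit genes, or 29.2%, against 21.1% of all genes. In the large subunit it was 7 of 49, or 14.3%, of which 6 were higher. The difference between the subunits was not tested.

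In the large subunit, Mrpl30, Mrpl34 and Mrpl58 gave the most positive values. Mrpl58, a peptidyl-tRNA hydrolase built into the ribosome, ranged from 62.5 to 149 CPM in db/db and from 56.3 to 86.5 CPM in db/m. Only 4 of its 9 db/db libraries lay above the db/m range, and the log2 fold change was 0.36 (SE 0.16, edgeR adjusted p = 0.186). Mrpl34 ranged from 135 to 401 CPM in db/db, the 401 being replicate 7, and from 125 to 194.5 CPM in db/m, at 0.37 (SE 0.17, edgeR adjusted p = 0.213). Mrpl30 stood at 0.39 (SE 0.18). Single libraries weighed on all of these: the value of Mrpl34 was 0.21 without db/db replicate 7, and those of Mrpl30 and Mrpl58 were 0.25 and 0.23 without db/db replicate 8. The core proteins Mrpl2, next to the peptidyl transferase centre, and Mrpl14, at the face between the subunits, stood at 0.22 and 0.26, and Mrpl37 at 0.25.

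Mrpl50 was the lone member with an unadjusted p under 0.05 on the negative side. Mrpl50 (ENSMUSG00000044018, chromosome 4), a large subunit protein specific to mitochondria, ranged from 16.2 to 35.7 CPM in db/db with a median of 21.1, and from 24.1 to 41.6 CPM in db/m with a median of 29.2. Below every db/m library lay 5 of the 9 db/db libraries, while replicates 1, 2, 4 and 6 overlapped with db/m. This gave a log2 fold change of -0.46 (SE 0.17; 95% interval -0.81 to -0.10) with an edgeR adjusted p of 0.113, and without db/db replicate 1 it was -0.55 and called. The fit without that replicate called 10.3% of all genes, against 7.39% with all libraries. Mrpl39, Mrps31, Mrpl9 and Mrpl32, the last of which is matured by the m-AAA protease, followed at -0.34, -0.30, -0.30 and -0.23. Their standard errors of 0.38, 0.19, 0.28 and 0.15 are too large to tell these values from 0. Mrpl39 stood at -0.19 without db/db replicate 8 and -0.21 to -0.22 without db/m replicate 2, 4 or 8.

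The divergent pair whose windows are printed gave values of opposite sign. Mrpl46 gave 32.0 to 74.1 CPM in db/db and 30.6 to 47.9 CPM in db/m, a log2 fold change of 0.30 (SE 0.17, edgeR adjusted p = 0.316). Mrps11 gave 8.08 to 17.6 CPM in db/db and 8.44 to 16.1 CPM in db/m, at -0.07 (SE 0.18, edgeR adjusted p = 0.860). Neither passed the test, and the difference between the pair was not tested. Of 25 opposite-strand partners that were tested, 1 was called, against 7.39% of all genes. This was Cyb5rl beside Mrpl37, at 0.87 (SE 0.22, edgeR adjusted p = 0.0154). Members with the ETS word had a median log2 fold change of 0.11 and members without it 0.12. The 7 with the NRF1 word had a median of -0.14 and those without it 0.14, and the 12 with the YY1 word had 0.03 and those without it 0.12. Among the 7 were Mrpl32, Mrpl39 and Mrpl9, which are 3 of the 5 most negative members. The rest of the 7 were Mrpl10 and Mrpl22, at -0.14 and -0.10, and Mrpl17 and Mrpl33, at 0.08 and 0.11. These windows were not tested against the fold changes. Mrpl46, Mrps11 and Cyb5rl were chosen after their values were seen.

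A pair of families with related roles was set beside the members. Both are incomplete here, the cytosolic ribosomal proteins above all. Of these, 50 genes passed the count rule, and Rps18, Rpl3, Rps2 and Rps6 were among those that failed it. Of the nuclear subunits of the respiratory chain and ATP synthase, 17 of 77 were called higher and 0 lower, with a median log2 fold change of 0.28. Of the cytosolic ribosomal proteins, 2 of 49 were called higher and 0 lower, with a median of 0.15. Over all genes 3.91% were called higher and 3.49% lower. The respiratory chain count was 11 without db/db replicate 5 or 7 and 7 to 10 without db/m replicate 1, 2, 3, 4, 6 or 8. The cytosolic count was 7 without db/db replicate 1 and 1 without db/db replicate 7, 8 or 9 or db/m replicate 1, 2, 3, 4 or 8. Of all genes, fits that left out 1 library called from 5.20%, without db/m replicate 4, to 10.3%, without db/db replicate 1. With the share of reads outside genes in the model, respiratory chain subunits had 0 called and cytosolic ones 1, against 4.44% of all genes. Differences between the families were not tested.

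**Figure D3:**
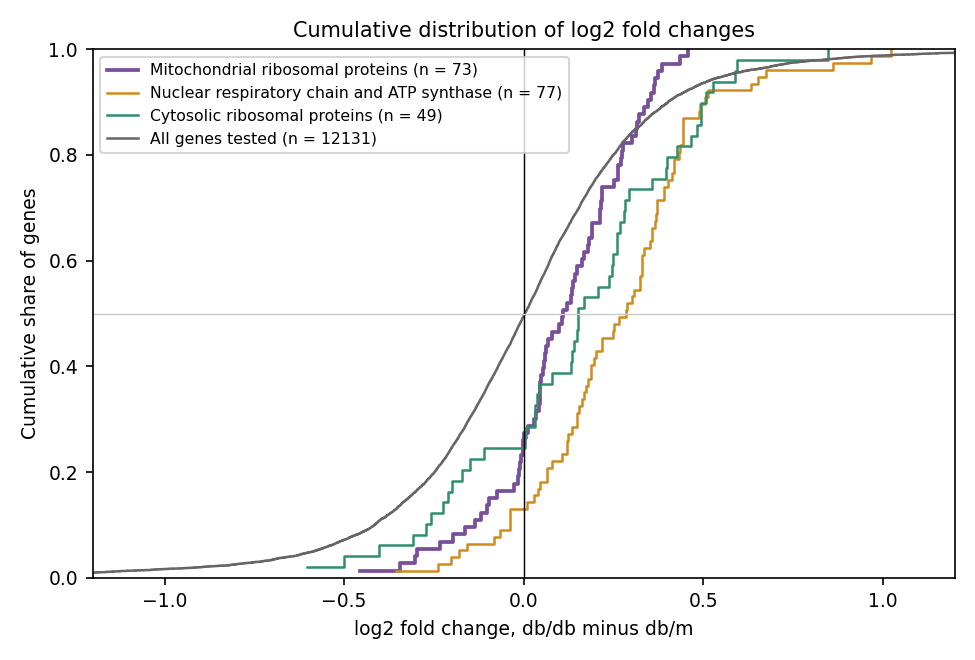
Cumulative share of genes (vertical axis) against log2 fold change, db/db minus db/m (horizontal axis), for the 73 mitochondrial ribosomal protein genes, 77 nuclear respiratory chain and ATP synthase subunits, 49 cytosolic ribosomal proteins and all 12131 genes tested. The 3 families cross the middle line at 0.11, 0.28 and 0.15, against 0.00 for all genes, and the mitochondrial ribosomal curve ends at 0.46.

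In the distribution plot all genes reach far beyond the members on both sides, but they number 12131 against 73. The lower and upper quartiles differ less in width, at -0.002 and 0.25 for the members and -0.20 and 0.20 for all genes. Within db/db, the summed level went together with a technical measure, with 1 exception. The db/db libraries with the highest summed levels, replicates 7 and 4, had the lowest shares of reads outside genes, 15.3% and 15.5%. Replicates 2 and 3, among the db/db libraries with low sums, had the highest shares, 22.1% and 21.3%. Replicate 1 departed from that order, with the lowest sum at a share of 17.9%. The db/m libraries did not show this order. Replicate 2 of db/m had both the lowest share, 19.7%, and the lowest sum, 4477. The highest db/m sum, 5039 in replicate 5, came with a share of 20.3%. With that share as a covariate, the median log2 fold change of the members was -0.01, 36 of 73 were positive, 3 had an unadjusted p under 0.05 and 0 were called, against 4.44% of all genes. The share averaged lower in db/db, and its part and that of genotype cannot be told apart.

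**Figure D4:**
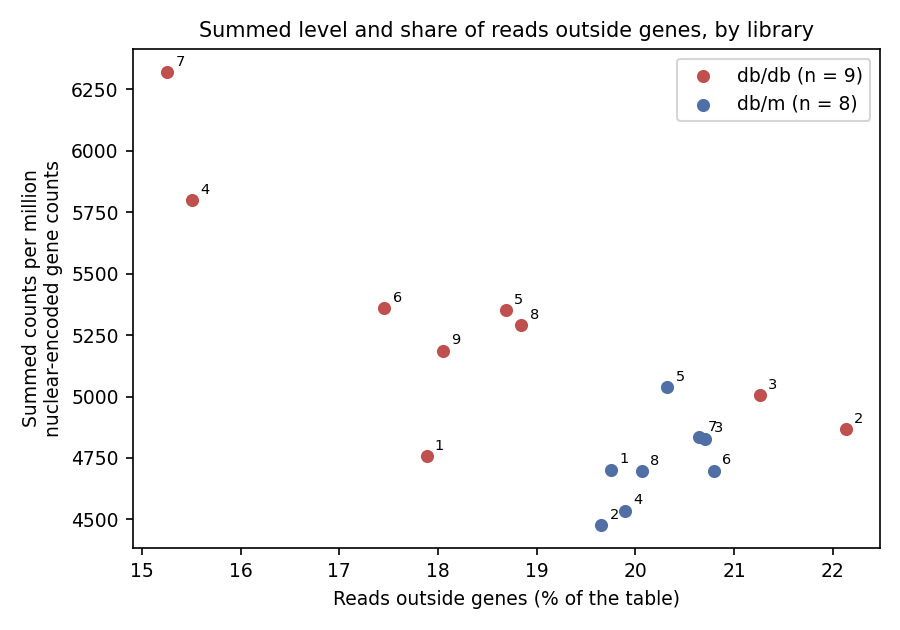
Summed transcripts of the 73 members in CPM of nuclear-encoded gene counts (vertical axis, not starting at 0) against the share of reads outside genes, in percent of the table (horizontal axis). Each point is a library labelled by replicate, db/db in red and db/m in blue; db/db replicates 7 and 4 lie at the upper left, and all db/m libraries lie between 19.7% and 20.8%.

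Within each group many members varied along 1 shared direction that split them into opposing sets. Log2 CPM values were centred on the mean of their own group, and the first principal component over all tested genes other than the members, called the axis here, held 36.04% of the remaining variance. Among the members alone the first component held 61.1%. Values were not scaled to equal variance, so members with a wide spread, such as Mrps21, Mrpl27 and Mrpl39, weigh more in this share. Over the 17 libraries both components gave nearly the same order (Pearson r = 0.989, Spearman rho = 0.956, and r = 0.979 without db/db replicates 8 and 1, the libraries farthest out). At the ends stood db/db replicate 8, at 0.60, and db/db replicate 1, at -0.43, and among db/m libraries replicate 5, at 0.31, and replicate 8, at -0.30. Many of the members followed a pattern present across the whole table.

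The sets were large and held both subunits. Of the members, 28 had r above 0.5 with the axis, or 38.4% against 22.0% of all genes, and 15 had r below -0.5, or 20.5% against 24.7%. The positive set held 18 large and 10 small subunit genes, and the negative set 10 large and 5 small ones. The sign was the same within db/db and within db/m for 57 of the 73. Of the members that ran against the axis, Mrpl39 was farthest, at r = -0.96 over the 17 libraries. It stood at 2.28 CPM in db/db replicate 8 and 38.0 in db/db replicate 1, and at 7.41 in db/m replicate 5 and 38.1 in db/m replicate 8.

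Mrps21, a small subunit protein with a bacterial homologue, behaved likewise at r = -0.95. It had 0 counts in db/db replicate 8, which allows up to 0.621 CPM from 3 counts, and 25.02 CPM in db/db replicate 1. In db/m it had 0.463 CPM in replicate 5 and 19.5 in replicate 8. Mrpl27, whose bacterial homologue reaches the peptidyl transferase centre, had 4.76 and 46.5 CPM in db/db replicates 8 and 1, and 3.24 and 36.6 CPM in db/m replicates 5 and 8. Mrpl1, Mrpl10, Mrpl33 and Mrpl50 followed, at r between -0.90 and -0.86.

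Members that ran with the axis tended to be more abundant. Mrpl30, at r = 0.93, had 115 CPM in db/db replicate 8 and 41.99 in db/db replicate 1, and 67.2 in db/m replicate 5 and 43.9 in db/m replicate 8. Mrps12, at r = 0.90, had 231 and 73.04 CPM in db/db replicates 8 and 1, and 125 and 77.6 CPM in db/m replicates 5 and 8. Mrpl58, Mrpl16, Mrps18a and Mrpl28 came next, at r between 0.88 and 0.84. Across the 73 members, Spearman's rho between r and the mean level was 0.54, against 0.19 over all genes, and rho between r and the GC content of the last 500 transcript bases was 0.32, against 0.29 over 11065 genes. Genes are not independent replicates, and these values describe the libraries. Mrpl1, Mrpl10, Mrpl27, Mrpl33, Mrpl16, Mrps18a and Mrpl28 were chosen after their values were seen.

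**Figure D5:**
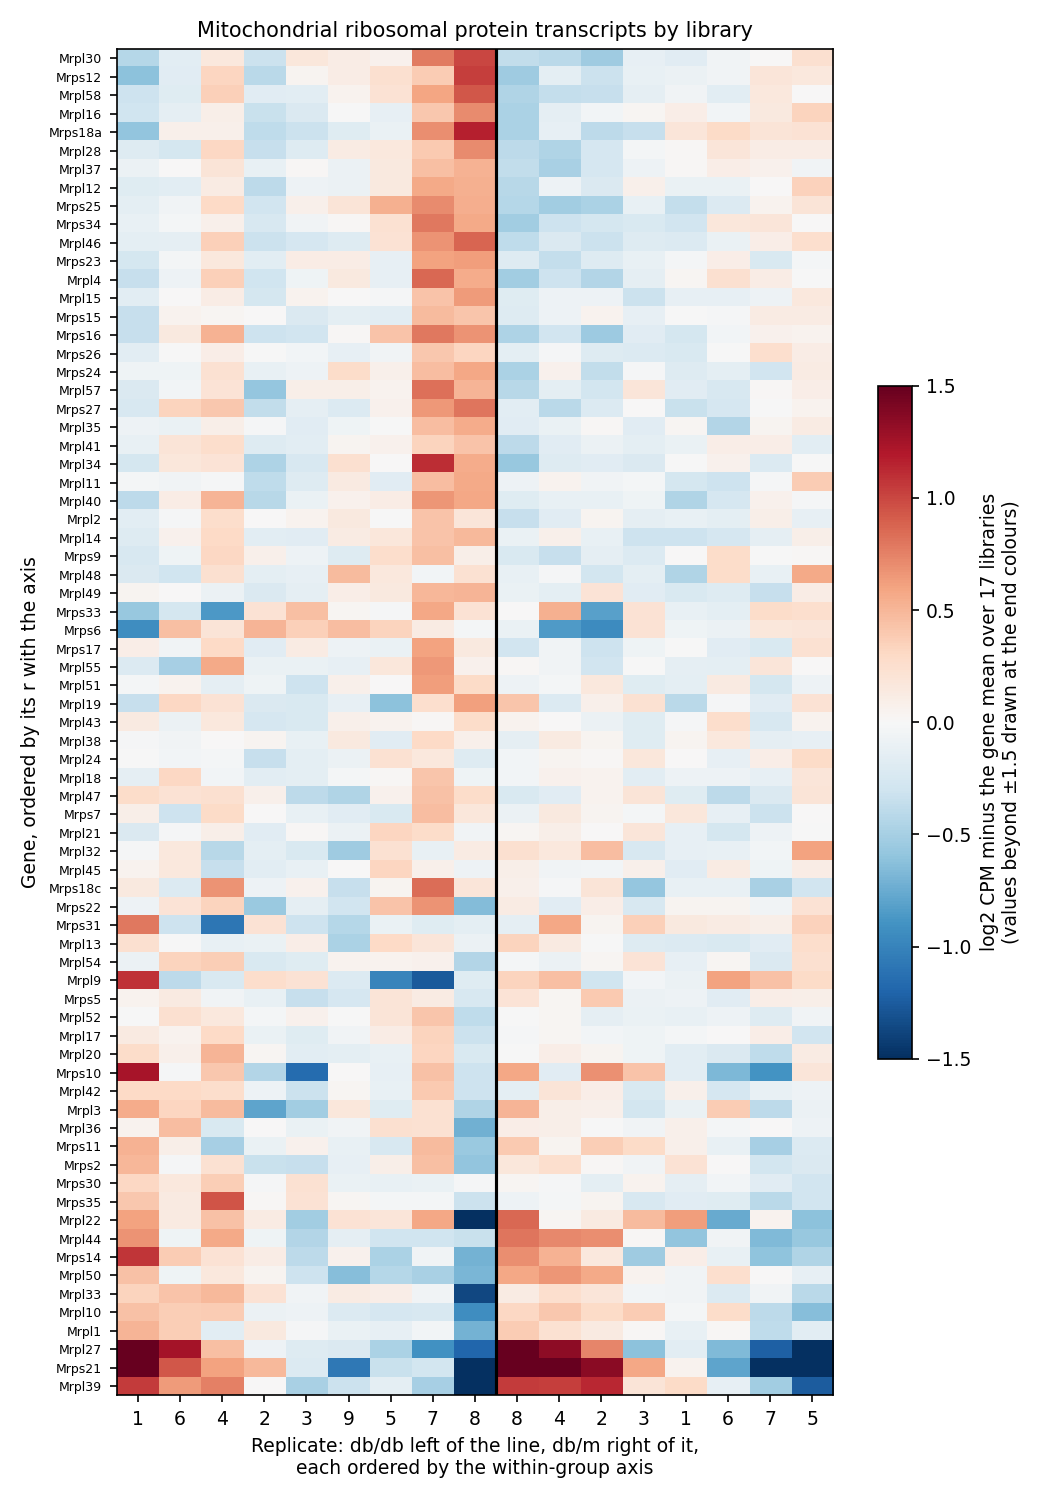
Log2 CPM of each member minus its mean over the 17 libraries (colour, values beyond ±1.5 drawn at the end colours). Columns are libraries, db/db left of the line and db/m right of it, each ordered by the axis, and rows are genes ordered by r with the axis; genes at the top run upward from left to right in both groups and genes at the bottom run downward.

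The heat map shows the opposing sets in both genotypes, from the block led by Mrpl30 and Mrps12 to that ending with Mrps21 and Mrpl39. The mitochondrially encoded share was 22.0% in db/db replicate 8 and 29.97% in db/db replicate 1, and 29.4% in db/m replicate 5 and 27.4% in db/m replicate 8. Its Pearson r with the axis was -0.56 over the 17 libraries (Spearman rho = -0.29) and -0.08 without db/db replicates 8 and 1, so the relation rests on those libraries. Within db/db it was -0.77 over 9 libraries and within db/m -0.07 over 8. The share of reads outside genes was 18.8% in db/db replicate 8 and 17.9% in db/db replicate 1. The part of RNA quality in the axis was not tested.

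With the axis as a covariate the errors narrowed and some members passed. This model was added after the data were seen, and its p-values do not allow for the axis having been estimated from the same libraries. The median standard error was 0.11, and 10 of 73 members were called, or 13.7% against 16.5% of all genes, a share near the background. Of these, 8 were higher, against 8.67% of all genes, and 2 lower, against 7.82%. Mrps25 stood at 0.45 (SE 0.10, edgeR adjusted p = 0.00212) and Mrpl50 at -0.47 (SE 0.10, edgeR adjusted p = 0.00297). The others were Mrpl30, Mrpl58, Mrps16, Mrps24, Mrpl37, Mrps34 and Mrps35, at 0.25 to 0.42, and Mrpl39, at -0.43 (edgeR adjusted p = 0.0442). Without the 4 libraries farthest out on the first principal component, no member was called, and the median was 0.06 against 0.03 over all genes. The values of Mrpl39, Mrps21 and Mrpl22 became positive, at 0.18, 0.84 and 0.14. The db/db libraries left out, replicates 7 and 8, lay at 0.24 and 0.60 on the axis, and db/m replicates 4 and 8 at -0.22 and -0.30. Leaving them out therefore moves the group means in opposite directions along the axis, and with them members that follow it. The cut was set after the data were seen. It kept db/db replicate 1, which lay nearly as far out on that component and at -0.43 on the axis.

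Members also differed in how closely they kept to the rest. The median pairwise r among them was 0.18 over 2628 pairs and 17 libraries, against 0.00 for all genes tested. Mrpl20, Mrps2 and Mrpl42 kept closest to the mean of the other members, at r = 0.76, 0.73 and 0.71, and Mrpl9, Mrps6, Mrps33 and Mrps31 ran against it, at -0.44, -0.42, -0.24 and -0.18. Within db/db the median SD of log2 CPM was 0.34 for members and 0.40 for all genes, and within db/m it was 0.21 and 0.30. The members' median lay below that of all genes in both genotypes, and both medians were higher in db/db; these differences were not tested. Mrpl20, Mrps2 and Mrpl42 were chosen after their values were seen.

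No other listed gene of mitochondrial translation was called by edgeR in the fit to all libraries. Across 9 lists of translation and other mitochondrial roles, 1 of 139 genes tested was called, and with the stress response list left out 0 of 128. Over all genes 7.39% were called. At an unadjusted p under 0.05 by edgeR there were 20 of the 139, or 14.4%, against 21.1% of all genes. The 5 ribosomal proteins with other symbols all had positive values, 0 called, with a median of 0.13. Dap3, a GTP-binding protein of the small subunit, stood at 0.26 (SE 0.12, edgeR adjusted p = 0.209), and Gadd45gip1 at 0.13. Of 15 translation factors 0 were called and 5 were positive, with a median of -0.07. Gfm2, which splits the ribosome after termination, stood at -0.46 (SE 0.18, edgeR adjusted p = 0.146) and the release factor Mtrf1l at -0.35.

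Of 27 ribosome assembly genes 0 were called, with a median of 0.02. Mpv17l2, an inner membrane protein needed for assembly, gave 50.5 to 110.6 CPM in db/db and 36.8 to 62.8 CPM in db/m, at 0.49 (SE 0.16, edgeR adjusted p = 0.0692), and the pseudouridine synthase Rpusd3 stood at 0.37. Of 22 genes charging mitochondrial tRNAs 0 were called, with a median of 0.12. Gatb, a subunit of the glutamyl-tRNA amidotransferase, gave 20.7 to 35.6 CPM in db/db and 31.8 to 42.9 CPM in db/m, at -0.38 (SE 0.12, edgeR adjusted p = 0.0580), and Ears2 stood at -0.44. DESeq2 called Gatb, at an adjusted p of 0.03997, and the outer membrane channel Vdac2, at 0.0212.

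Of 23 genes of mitochondrial DNA and RNA 0 were called, with a median of 0.04. Trmt10c, a subunit of the enzyme that cuts tRNAs free, averaged 2.25 ± 0.845 CPM in db/db and 3.88 ± 1.27 CPM in db/m (SD, n = 9 and 8), at -0.78 (SE 0.25, edgeR adjusted p = 0.0618). Lrpprc, which stabilises mitochondrial messengers, stood at 0.23. Of 12 regulators of biogenesis 0 were called, with Gabpb2, a subunit of the ETS-family complex GABP, at -0.37 and Sp1 at -0.21. Of 17 genes of import and general mitochondrial mass 0 were called. Vdac2 stood at 0.28 (SE 0.09, edgeR adjusted p = 0.0671) and the chaperonin Hspd1 at -0.36 (SE 0.12, edgeR adjusted p = 0.0681).

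Of the 13 messengers that the mitochondrial ribosome translates, 7 had enough counts to test and 0 were called, with log2 fold changes from -0.26 to 0.14. No count was recorded for mt-Co2, mt-Nd3 and mt-Nd4l, while mt-Nd4 held 4793586 counts over db/db and 4635545 over db/m, so this table does not rank those messengers by abundance. In the mitochondrial stress response list 1 of 11 was called. Gdf15, a secreted stress cytokine, averaged 42.1 ± 27.0 CPM in db/db and 14.8 ± 8.75 CPM in db/m, at 1.495 (SE 0.35, edgeR adjusted p = 0.00998). Without the 4 libraries farthest out on the first principal component it stood at 1.12 and was not called (edgeR adjusted p = 0.0695). Gdf15 is also made outside this response. Over the 9 lists the count was 5 without db/db replicate 1, 4 without db/db replicate 8 and 2 without db/db replicate 2, 4 or 5.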

How the data were processed

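Kidney libraries of 9 db/db and 8 db/m mice were prepared with a QuantSeq 3′ mRNA kit, per the labels' protocols, whose text speaks of cultured cells while the tissue field gives kidney. The authors deposited 1 table of raw counts per gene; the submitters' processing notes name STAR 2.7.3a and HTSeq 2.16.2. They also list GRCh38 although the identifiers are mouse genes. Which mouse build, annotation and strand setting was used, and whether molecular identifiers were collapsed, was not given in the sources used here. Reads outside genes (19.3% of the table) and ambiguous ones (0.533%) were left out of library sizes. Of 55487 identifiers 55141 were given a symbol, and those without one held 0.00885% of the counts.

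The counts were tested with edgeR 4.0.16 in R 4.3.3 on the whole table: filterByExpr with a minimum count of 10, TMM scaling, the quasi-likelihood F-test and Benjamini-Hochberg adjustment over 12131 genes, called at an adjusted p under 0.05. CPM of single genes use the TMM-scaled library sizes, log2 CPM a prior count of 2, and 95% intervals the moderated t quantile. The summed levels of the members per library use raw counts over raw totals, without TMM. Intervals cover the spread between libraries, and a limit of 3 counts for a count of 0 covers counting error only. Each library is taken as 1 animal, although the labels do not state separate extractions, and p-values measure the spread between these libraries. Within groups, the chi-square between any pair of libraries was at least 3.57 per degree of freedom, so none was deposited in duplicate.

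Members and lists were chosen with earlier results of these data known. Members named are the 12 of smallest p and the 5 highest and lowest by level and by fold change; in other lists called genes, or the 2 of smallest p. Alternatives were DESeq2 1.42.0, limma-voom (limma 3.58.1), other scaling and filters, covariates, a replicate block and leaving out libraries. Scripts were tested on simulated data.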

Additional observations from a re-analysis of the deposited data

Results flagged for a closer look

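In groups of 4 to 10 samples, 94 sets of values were examined for a single library far from the rest of its group, and 10 stood apart by Dixon's criterion, where chance gives about 1 in 20. The ratio given is the gap to the nearest library over the whole range of the group.

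Among members in db/db, replicate 1 was highest for Mrps21, at 25.02 CPM against 0 to 8.44 in the other db/db libraries (ratio 0.663), for Mrpl9, at 9.61 CPM against 1.55 to 5.24 (ratio 0.542), and for Mrps10, at 6.25 CPM against 0.844 to 3.41 (ratio 0.527). The same library was lowest for Mrps6, at 124 CPM against 232 to 339 (ratio 0.503). Mrps12 was highest in db/db replicate 8, at 231 CPM against 73.04 to 146 (ratio 0.535), and Mrps35 in db/db replicate 4, at 99.6 CPM against 41.4 to 68.4 (ratio 0.537).

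In db/m, replicate 5 was highest for the summed large subunit, at 3458 CPM of nuclear counts against 3197 to 3300 (ratio 0.605), and for Dap3, at 63.0 CPM against 40.2 to 50.1 (ratio 0.568). Gdf15 was highest in db/m replicate 6, at 35.1 CPM against 6.82 to 16.7 (ratio 0.651). The deepest library, db/db replicate 9, held 7627747 gene counts against 3256427 to 5178789 in the other db/db libraries (ratio 0.560).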

How the results depend on the processing

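With no member called in the fit to all 17 libraries, the count was also 0 under 14 of 17 fits that left out 1. It was 0 under 10 of 12 other alternatives. Among those, the replicate block and its counterpart without the block used replicates 1 to 8 only. That counterpart is the same fit as the one without db/db replicate 9, so it adds no further check. DESeq2 called 1 member, higher and in the small subunit, and 3 genes of the other lists. The within-group axis as covariate, added after the data were seen, called 8 higher and 2 lower (5 large, 5 small), 13 genes of the other lists, 11 cytosolic ribosomal proteins and 39 respiratory chain subunits. Cytosolic ribosomal proteins and respiratory chain subunits had 0 and 11 called with no filter, 1 and 0 with the share of reads outside genes, and 1 and 9 without the 4 libraries that stood apart. Limma-voom called 1 cytosolic ribosomal protein and 2 genes of the other lists. The share called over all genes tested was 7.37% by DESeq2, 7.54% by limma-voom and 16.5% with the axis. It was 3.28% with no filter, 4.44% with the share of reads outside genes and 7.33% without the 4 libraries. The cause of these changes was not tested.

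Leaving out each library gave 0 to 1 members called higher, 0 to 1 lower, 0 to 1 in each subunit, 1 to 5 in the other lists, 1 to 7 cytosolic ribosomal proteins, 7 to 20 respiratory chain subunits, and a median log2 fold change of 0.07 to 0.15. The share called over all genes in these fits ran from 5.20%, without db/m replicate 4, to 10.3%, without db/db replicate 1. Signs turned for several members. With the share of reads outside genes as covariate, Mrpl12 stood at -0.00990, Mrps10 at -0.47 and Mrps33 at 0.0999. Without the 4 libraries, Mrpl12 stood at -0.0922, Mrps12 at -0.00528, Mrpl22 at 0.14, Mrpl39 at 0.18 and Mrps21 at 0.84. In that fit Gdf15, at 1.12, was no longer called (edgeR adjusted p = 0.0695). The 4 lay high on the axis in db/db and low on it in db/m, so leaving them out moves members that follow the axis. Nearly as far out on the first principal component was db/db replicate 1, low on the axis, which was kept. Leaving out 1 library gave ranges of -0.20 to 0.18 for Mrps10, -0.12 to 0.0605 for Mrps33, -0.20 to 0.0588 for Mrpl22 and -0.84 to 0.21 for Mrps21.

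Same-numbered libraries did not deviate together (r from -0.45 to 0.21, 1 of 8 db/db libraries closest to its own number), so the numbers were not taken as pairs. With the replicate block, 0 members were called at a median of 0.12, with 0 cytosolic ribosomal proteins, 1 respiratory chain subunit and 0 genes of the other lists; Mrps21 stood at 0.0878, Gdf15 at 1.29 (edgeR adjusted p = 0.0658), and 425 genes were called in all. The same 16 libraries without the block gave 732 genes, 0 members and 1 cytosolic ribosomal protein. Low counts limit Mrps10, Mrps33, Mrpl9 and Mrps21, and tags at overlapping genes cannot be assigned without strand: 33 members overlap a gene on the opposite strand and 11 one on the same strand.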
